A study of Mus musculus with 4 samples.

Results

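The genes followed here encode the contractile apparatus of smooth muscle: Acta2, Myh11, Cnn1, Tagln, Myl9, Des, Actg2, Smtn, Lmod1 and Tnnt2. They were taken by gene symbol from the feature tables of a single-cell RNA sequencing study of the mouse testis, where all 10 were found among 32285 genes. The study compared testicular organoids (TOs) with testes, with 2 libraries in each group, and the comparison asks whether the cells that surround the seminiferous tubules keep their contractile state in culture.

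TOs are tissue-like aggregates that formed in culture from the dissociated cells of neonatal mouse testes. The testis group is tissue taken from mice, and the series gives both groups an age of 28 days, although the labels' dissociation protocol speaks of TOs at day 21. The study counts TO days from the start of culture with cells of pups, whereas the age of the testes is that of the mice. The labels give no strain, genotype or treatment and call the cells unsorted; the study's methods name ICR mice. The study describes the testis libraries as biological replicates and takes the organoids of its single-cell work from independent batches, without saying which batch made which TO library. The labels themselves do not name animals or cultures.

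Each library was read as unique molecular identifiers (UMIs), 1 for each captured RNA molecule, by the 3′ chemistry of the 10x Genomics platform. The libraries held 14643 and 12491 barcodes for TO replicates 1 and 2, and 12179 and 11826 for testis replicates 1 and 2. Median depth was 5316 and 7764 UMIs per barcode in the TOs against 2833 and 3314 in the testes, so shares of cells with a UMI are given after each cell was thinned to 1500 UMIs. Pairs of libraries shared between 30 and 55 barcodes, at most 0.440% of the smaller library. After filtering, 18516 TO cells and 19377 testis cells were kept. Cells with spermatid markers made up 5319 and 6210 of the testis cells but 111 and 78 of the TO cells, and free RNA from those cells was found in other classes of the testis libraries. Levels are given as CPM, the UMIs of a gene in every 1000000 UMIs summed over the cells of a class in a library. Because the CPM of different genes in 3′ data are not on a common scale, levels are compared between libraries and classes, never between genes.

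Peritubular myoid cells are flat, smooth muscle-like cells that form the wall of the seminiferous tubule, and their contractions move sperm and fluid towards the rete testis. As in other smooth muscle, force comes from myosin filaments that pull on actin filaments after the myosin light chain is phosphorylated. The contractile genes share control by serum response factor and its partner myocardin. Serum response factor binds the CArG box, a short DNA element found near many smooth muscle genes. Vascular smooth muscle and pericytes use most of the same genes.

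The CArG box is shown here because it is the sequence through which these genes are known to be controlled together. RefSeq promoters (GRCm38.p6) were matched for 7 of the 10 genes, namely all but Myh11, Tagln and Actg2. Both strands of the 250 bases before each start site were searched, which is 1 search because the element reads the same on either strand. An element matching all 10 positions was found for 1 gene, Myl9, and in 1.47% of 32851 promoters. With 1 position allowed to differ, 4 genes held an element, against 18.6% of promoters. A match describes the letters only and is not evidence of binding. In the stretches below, written 5′ to 3′ on the strand of the gene, capitals mark the 10 bases aligned to the CArG box. The Myl9 element at position -161 from the start site is the full match and the others differ at 1 position.
Acta2, chr19:34255438-34255467, minus strand, element at -84: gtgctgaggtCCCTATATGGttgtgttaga
Acta2, chr19:34255388-34255417, minus strand, element at -34: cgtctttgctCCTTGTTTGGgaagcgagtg
Myl9, chr2:156775293-156775322, plus strand, element at -161: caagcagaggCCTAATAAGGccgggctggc
Myl9, chr2:156775355-156775384, plus strand, element at -99: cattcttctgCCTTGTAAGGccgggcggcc
Lmod1, chr1:135324614-135324643, plus strand, element at -189: gcccccttgtCTTTAAAAGGctaaactgct
Lmod1, chr1:135324639-135324668, plus strand, element at -164: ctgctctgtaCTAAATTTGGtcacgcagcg
Tnnt2, chr1:135836186-135836215, plus strand, element at -138: gaccacatgaGCTTATATGGcgtggggtac
Tnnt2, chr1:135836236-135836265, plus strand, element at -88: cgggcacctgCCAAAATAGCagccaacacc

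The genes lie apart from each other, on GRCm38 chromosomes 19 (Acta2, 34241090 to 34255590), 16 (Myh11, 14194535 to 14291372), 9 (Cnn1, 22099216 to 22109630, and Tagln, 45929619 to 45936058), 2 (Myl9, 156775420 to 156781658), 6 (Actg2, 83512905 to 83536265) and 11 (Smtn, 3517523 to 3540612), and on chromosome 1 for Des (75360329 to 75368579), Lmod1 (135324807 to 135368065) and Tnnt2 (135836354 to 135852260). Tagln, Des, Smtn and Lmod1 overlap genes of the other strand (Pcsk7 and Gm48529 for Tagln), and whether the counting used strand is not given in the sources used here.

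Cells were clustered without the contractile genes and without 44 companion genes of the same pathway, so that these genes could not set the classes. Of the mesenchymal cells, a myoid-like class was named from 10 other markers (such as Itga8, Hhip and Fhl2), beside stromal-like and matrix fibroblast-like classes. The myoid-like class held 2070 and 1334 TO cells and 586 and 356 testis cells. As a share of mesenchymal cells this was 39.4% and 27.0% in the TOs and 45.5% and 42.1% in the testes. The means were 33.2% ± 8.76 and 43.8% ± 2.41 (SD, n = 2 libraries each), and the two-sided exact permutation test over libraries gave p = 0.333, the smallest it can give with 2 against 2. Without alignment across libraries the difference had the other sign, 11.4 percentage points higher in TOs. Part of this class did not match its name in the TOs, and that part is set out before the results.

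The myoid-like class was made of 4 clusters, and the cluster led by Rergl and Mustn1 held 236, 148, 117 and 72 cells in TO replicates 1 and 2 and testis replicates 1 and 2. Its testis cells had 322 and 242 UMIs of Rergl, 683 and 456 of Mustn1, 93 and 153 of Sncg and 146 and 92 of Rgs5, whereas its TO cells had 0 and 0 UMIs of Rergl, 5 and 0 of Mustn1, and none of Sncg or Rgs5. Markers of vascular mural cells (Ndufa4l2, Higd1b, Cox4i2, Kcnj8, Abcc9 and Cspg4) summed to 396 and 433 CPM in its testis cells and to 51.8 and 51.5 CPM in its TO cells. Pdgfra, a stromal marker, was at 372 and 576 CPM in its TO cells and at 5.79 and 4.09 CPM in its testis cells. The TO and testis cells of this cluster therefore shared a place after alignment but not the genes that name it. Tests in myoid-like cells are given with and without the cluster, which is called the Mustn1-led cluster. In the rest of the class, myoid markers summed to 2647 and 2698 CPM in the TOs and to 2164 and 3510 CPM in the testes. Stromal markers summed to 2640 and 3386 CPM in the whole myoid-like class of the TOs, above the 1245 and 1543 CPM of the testes. Without the Mustn1-led cluster they summed to 2490 and 3325 CPM against 1207 and 1582 CPM. Their part in the results below was not tested.

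Within the myoid-like cells, 4 of the 10 genes were lower in TOs by the edgeR quasi-likelihood test (adjusted p below 0.01 and a log2 fold change beyond 1) and none was higher, by DESeq2 either or at an unadjusted edgeR p under 0.05. Tagln, Des, Actg2 and Cnn1 were called lower, while Acta2 and Myh11 were lower in both TO libraries but did not pass the test. All genes were fitted together, and 20.4% of the 14923 genes tested were called lower and 5.51% higher, so 4 of 10 is to be read against those shares. All 10 passed the filter on low counts. The median log2 fold change of the 10 genes was -0.80, against 0.086 over all genes tested. Without the Mustn1-led cluster the same 4 genes were called lower, where 18.4% of 14375 genes were, and the median was -0.64 against 0.059.

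**Figure D1:**
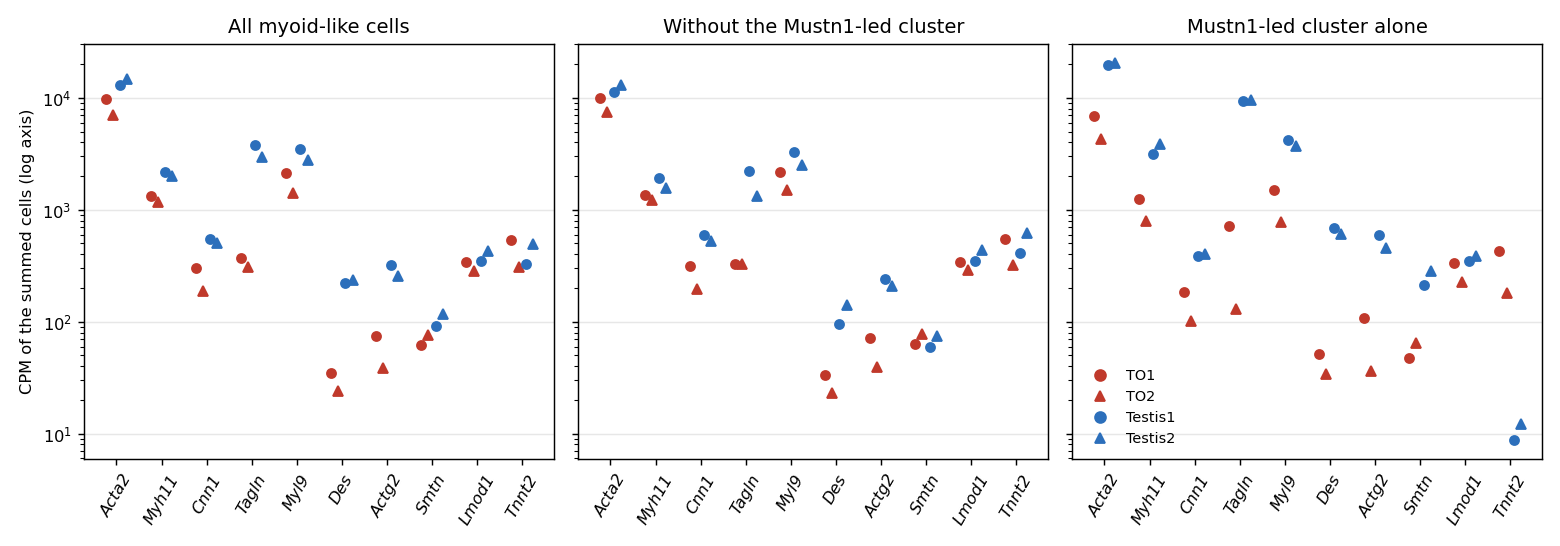
Level of each contractile gene (CPM, log axis) in the myoid-like cells of the 2 TO and 2 testis libraries, for the whole class, for the class without the Mustn1-led cluster and for that cluster alone. Each point is 1 library. In the whole class Tagln and Des separate the groups most, at 368 and 309 against 3757 and 2973 CPM for Tagln, and Tnnt2 overlaps.

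Tagln encodes transgelin, an actin-bundling protein and an early marker of smooth muscle. It stood at 368 CPM in TO replicate 1 and 309 CPM in TO replicate 2, against 3757 and 2973 CPM in testis replicates 1 and 2. Both TO libraries lay far below both testis libraries, at 0.101 of the testis mean. The log2 fold change was -3.33 (SE 0.34, edgeR adjusted p = 1.44e-05). Without the Mustn1-led cluster, Tagln was at 328 and 329 CPM in the TOs and at 2202 and 1326 CPM in the testes. The groups again did not overlap, with a log2 fold change of -2.50 (SE 0.34, edgeR adjusted p = 2.8e-04), so the difference was smaller without the cluster but still 5.37-fold in the means. Cell by cell at 1500 UMIs, 25.5% and 19.4% of myoid-like TO cells had a UMI of Tagln, compared with 92.3% and 79.2% of testis cells. In macrophage-like cells, which should lack it, at most 0.433% of cells in a library had a Tagln UMI at that depth. Unthinned, macrophage-like cells held 7 and 47 Tagln UMIs in the TOs and 1 and 1 in the testes. The myoid-like level was 101 and 29.3 times the macrophage-like level in the TOs and 2715 and 1855 times in the testes.

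Des encodes desmin, the intermediate filament that ties the contractile units of muscle together. Its level was 35.1 and 24.2 CPM in the TOs and 222 and 236 CPM in the testes. The 2 groups did not overlap, and the log2 fold change was -2.96 (SE 0.25, edgeR adjusted p = 4.2e-06). When the Mustn1-led cluster was left out, the levels were 33.1 and 23.1 against 94.8 and 142 CPM, and the log2 fold change was -2.13 (SE 0.27, edgeR adjusted p = 1.8e-04). Desmin UMIs were found in 4.43% and 3.38% of thinned TO cells and in 21.8% and 24.7% of testis cells, and in 0% of macrophage-like cells in all 4 libraries (upper 95% exact binomial limits of 0.532% to 2.46%).

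Actg2, the gamma actin of enteric and other visceral smooth muscle, was at 75.0 and 38.7 CPM in the TOs and at 318 and 258 CPM in the testes. Neither TO library reached either testis library, and the log2 fold change was -2.36 (SE 0.31, edgeR adjusted p = 1.0e-04), or -2.10 (SE 0.29, edgeR adjusted p = 3.3e-04) without the Mustn1-led cluster. Actg2 has another source in these data. Spermatid-like cells held 75.7% and 93.3% of all Actg2 UMIs of the testis libraries, and macrophage-like cells of the testes carried 29.1 and 25.6 CPM against 0 and 0.673 CPM in the TOs. The testis level in myoid-like cells was 11 and 10.0 times that in macrophage-like cells of the same library. Spermatid markers, which no mesenchymal cell should make, summed to 3072 and 3277 CPM in myoid-like testis cells and to 2.49 and 5.57 CPM in TO cells. The part of this free RNA in the Actg2 difference was not tested. The call did not stand with thinned sums (log2 fold change -2.46, edgeR adjusted p = 0.013).

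Cnn1 encodes calponin, which binds actin and slows the myosin motor. Levels were 299.8 and 187 CPM in the TOs against 547 and 501 CPM in the testes. The groups did not overlap, but the fold was modest (log2 fold change -1.12, SE 0.28, edgeR adjusted p = 0.0079), and it was -1.20 (SE 0.28, edgeR adjusted p = 0.0077) without the Mustn1-led cluster. The Cnn1 call did not stand without TO replicate 2 (edgeR adjusted p = 0.088), without testis replicate 1 (0.015), with thinned sums (0.029), with no doublet removal (0.013), at resolution 2 (0.013) or with the contractile genes kept in the clustering (0.011). With no alignment across libraries by Harmony its sign turned (log2 fold change 0.19, edgeR adjusted p = 0.59).

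Acta2, another actin of smooth muscle, was at 9674 and 7072 CPM in the TOs and at 13020 and 14609 CPM in the testes. Both TO libraries were lower, at 0.606 of the testis mean, but the difference missed the threshold (log2 fold change -0.74, SE 0.40, edgeR adjusted p = 0.17). Acta2 was found in almost every myoid-like cell of either group, with a UMI in 98.7% and 94.1% of thinned TO cells and in 99% and 98.3% of testis cells. Myh11, the smooth muscle myosin heavy chain, was at 1333 and 1180 CPM in the TOs and at 2188 and 2019 CPM in the testes. It too was lower in both TO libraries without passing the test (log2 fold change -0.75, SE 0.30, edgeR adjusted p = 0.065), and was seen in 77.8% and 70.2% of thinned TO cells and in 91.3% and 82.0% of testis cells. Without the Mustn1-led cluster, the log2 fold changes were -0.55 for Acta2 and -0.50 for Myh11 (edgeR adjusted p = 0.30 and 0.21).

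Myl9 encodes the regulatory myosin light chain that is phosphorylated to start a contraction. It measured 2117 and 1421 CPM in the TOs and 3482 and 2769 CPM in the testes. The libraries did not overlap, with a log2 fold change of -0.84 (SE 0.34) that missed the threshold (edgeR adjusted p = 0.071), and -0.73 without the Mustn1-led cluster (edgeR adjusted p = 0.12). Smtn, a cytoskeletal protein of contractile smooth muscle, was at 61.6 and 75.7 CPM in the TOs and at 91.8 and 117 CPM in the testes (log2 fold change -0.61, edgeR adjusted p = 0.066). Its groups overlapped once the Mustn1-led cluster was left out, at 63.2 and 77.1 against 58.9 and 75.1 CPM. Lmod1, a leiomodin that starts actin filaments in smooth muscle, was nearly level at 344 and 282 against 348 and 426 CPM (log2 fold change -0.32, SE 0.25, edgeR adjusted p = 0.34).

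Tnnt2 encodes the troponin T of the heart, a part of the striated muscle thin filament. In the myoid-like cells it was at 536 and 305 CPM in the TOs and at 326 and 497 CPM in the testes. The 2 groups overlapped fully, and the log2 fold change was 0.02 (SE 0.32, edgeR adjusted p = 0.98). Its sign changed with the scaling of the libraries, being -0.04 with RLE factors, and without the Mustn1-led cluster it was -0.31 (edgeR adjusted p = 0.47). With no alignment across libraries by Harmony, where the myoid-like share of mesenchymal cells was 16.8% and 17.2% in the testes, Tnnt2 was called higher in TOs (log2 fold change 5.05, edgeR adjusted p = 1.6e-06). By libraries, 9 of the 10 genes were lower in both TO libraries than in both testis libraries, with Tnnt2 the exception, against 35.5% of all genes tested.

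**Figure D2:**
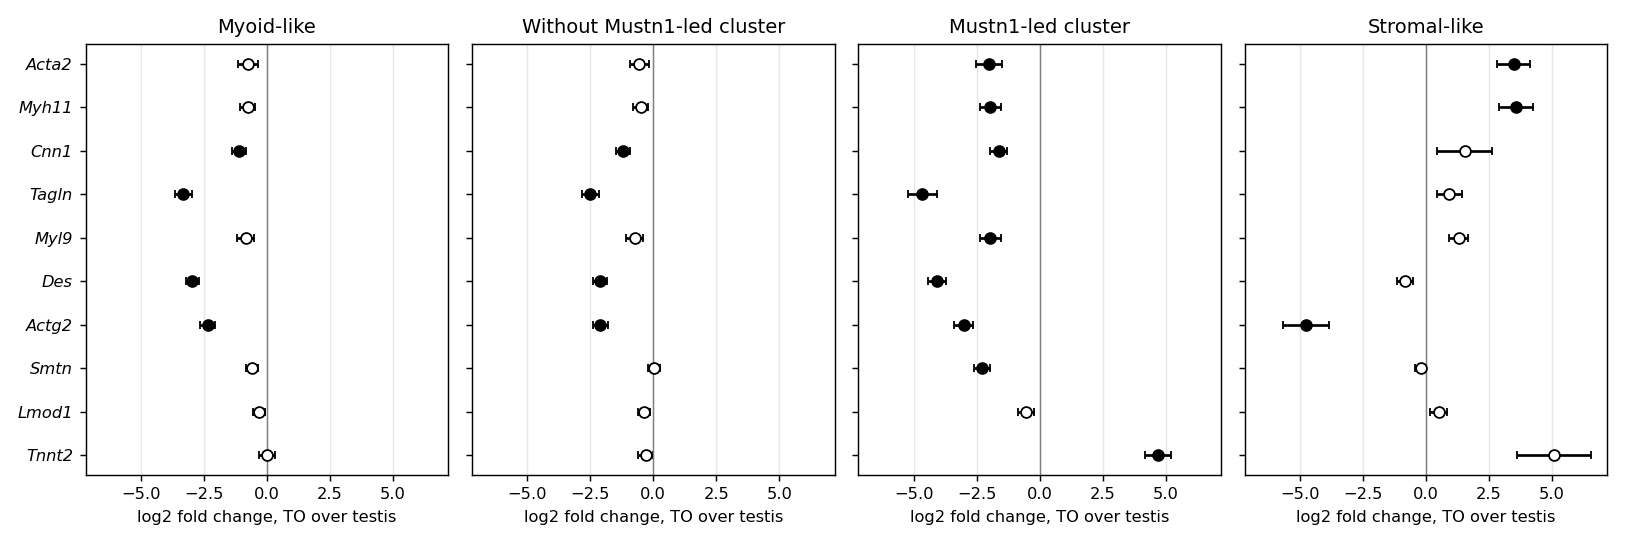
Log2 fold change of TO against testis (points) with its standard error (bars) for each contractile gene in the myoid-like cells, in the myoid-like cells without the Mustn1-led cluster, in that cluster alone and in stromal-like cells. Filled points passed the edgeR test and open points did not; the 4 filled points of the first panel are Tagln at -3.33, Des at -2.96, Actg2 at -2.36 and Cnn1 at -1.12, and in stromal-like cells Acta2 and Myh11 lie above 0.

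The Mustn1-led cluster, fitted on its own, was called different in 9 of the 10 genes, 8 lower and 1 higher in TOs, where 22.0% of 9207 genes were called lower and 12.9% higher. Since its TO cells lacked the leading genes of the cluster, these values set side by side cells that may not be of 1 type. Acta2 stood at 6947 and 4253 CPM in its TO cells and at 19611 and 20521 CPM in its testis cells. Tagln was at 714 and 129 against 9406 and 9605 CPM, and Smtn at 47.7 and 64.3 against 211 and 286 CPM. Tnnt2 went the other way, with 413 and 155 UMIs in the TO cells and 3 and 3 in the testis cells (log2 fold change 4.71, SE 0.52, edgeR adjusted p = 9.1e-11). The remaining myoid-like testis cells held 413 and 617 CPM of Tnnt2, so that in the testes Tnnt2 separated these cells from the Mustn1-led cluster.

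The other myoid-like clusters were fitted singly too. In the cluster led by Tnnt2 and Cnn1, the largest, Tagln (-2.60), Des (-2.42), Actg2 (-2.32) and Cnn1 (-1.31) were called lower, with 17.2% of its genes called lower. In the cluster led by Prkcb and Hhip, Tagln (-2.23), Des (-1.80) and Actg2 (-1.72) were, against 14.9%. In the small cluster led by Dync1i1 and Ano3, with 212 and 110 TO cells but 19 and 14 testis cells, Tagln (-4.39) and Actg2 (-3.50) were, against 6.75%. These values are log2 fold changes of TO against testis.

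Counting genes per cell gave the same order of the groups. Thinned to 1500 UMIs, a myoid-like cell had a UMI of 4.22 and 3.63 of the 10 genes on average in the TOs and of 5.69 and 5.60 in the testes. The means of the libraries were 3.92 ± 0.411 and 5.64 ± 0.0652 (SD, n = 2 each), a difference of -1.72 (two-sided exact permutation p = 0.333, the smallest possible), or -1.60 without the Mustn1-led cluster. Cells with at least 4 of the 10 genes made up 68.6% and 53.8% of the TO cells and 96.4% and 94.1% of the testis cells. Thinning left out 17 and 4 of the TO cells, which had fewer UMIs, and none of the testis cells. Unthinned, the averages were 5.76 and 5.57 in the TOs against 6.60 and 7.18, with median depths of 4349 and 6094 UMIs per myoid-like TO cell and 2658 and 3427 per testis cell.

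**Figure D3:**
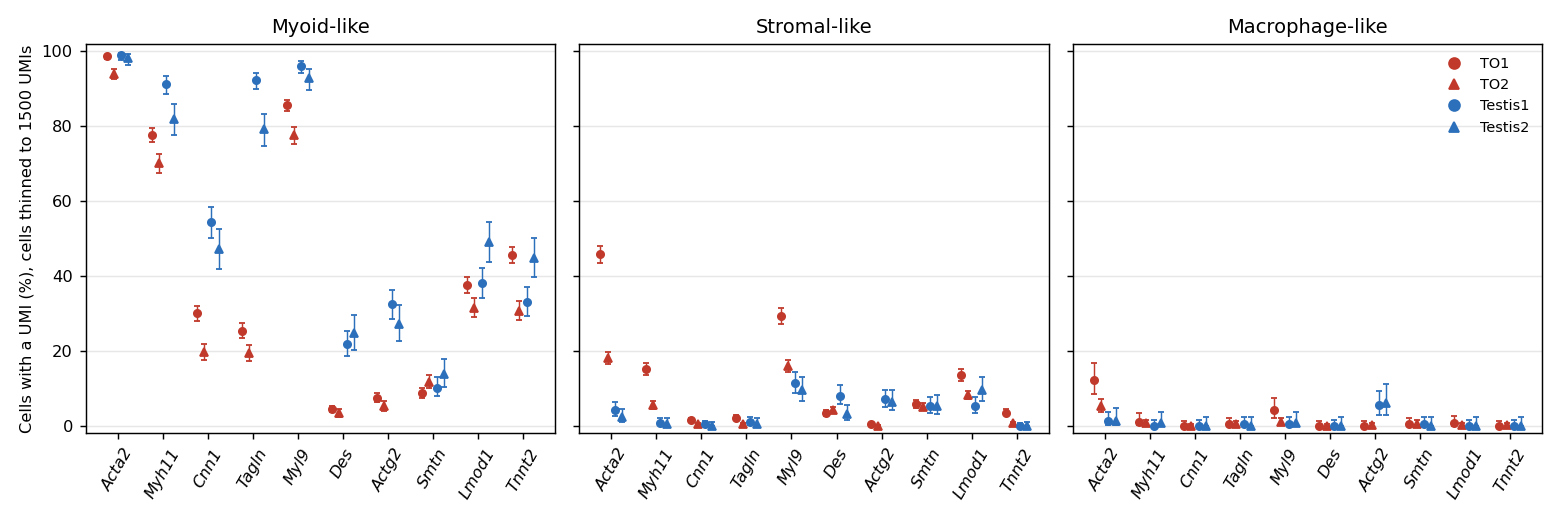
Percent of cells with a UMI of each contractile gene after thinning every cell to 1500 UMIs, in myoid-like, stromal-like and macrophage-like cells of each library, with 95% exact binomial intervals that cover counting error only. In myoid-like cells Acta2 is found in 94.1% to 99% of cells in every library, whereas Tagln falls from 92.3% and 79.2% in the testes to 25.5% and 19.4% in the TOs; in stromal-like cells Acta2 is higher in the TOs.

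The stromal-like class, marked by genes of interstitial fibroblasts such as Clec3b, Pi16 and Dpt, differed in the other direction for some genes. Myoid markers summed to 1893 and 1552 CPM in its TO cells and to 991 and 1164 CPM in its testis cells. Stromal markers summed to 10067 and 8055 CPM against 11774 and 24245 CPM. The part of these shifts in the stromal-like results was not tested. Acta2 and Myh11 were higher in TOs and Actg2 was lower, while Tagln, Des and Cnn1 did not pass the test. Among 14550 genes tested in this class 1.86% were called higher and 16.9% lower, and all 10 genes passed the filter. Acta2 was at 1053 and 271 CPM in the TOs and at 39.9 and 78.1 CPM in the testes, so that even the lower TO library lay above both testis libraries. The log2 fold change was 3.48 (SE 0.65, edgeR adjusted p = 0.0058). Myh11 was at 148 and 42.2 CPM against 7.63 and 8.27 CPM (log2 fold change 3.56, SE 0.67, edgeR adjusted p = 0.0059), with 9 UMIs in each testis library. Tagln was at 21.7 and 10.3 CPM in the TOs and at 10.2 and 6.44 CPM in the testes (log2 fold change 0.92, edgeR adjusted p = 0.22), and Des at 25.6 and 25.3 against 59.4 and 33.1 CPM (log2 fold change -0.85, edgeR adjusted p = 0.083). The Tagln level was 5.94 and 0.979 times that of macrophage-like cells in the TOs and 7.36 and 4.02 times in the testes. Myl9 was at 296 and 129 against 86.5 and 87.3 CPM (log2 fold change 1.29, edgeR adjusted p = 0.037).

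The rise of Acta2 was seen in several stromal-like clusters fitted on their own. It was called higher in the clusters led by Sned1 (log2 fold change 5.52), Clec3b (5.11) and Tll1 (4.63), where 1.03%, 1.56% and 1.13% of genes were called higher. In the Clec3b-led cluster its level was 848 and 128 CPM in the TOs and 14.0 and 13.4 CPM in the testes (6 and 4 UMIs). In the cluster led by Ccn5 and Pi16 it was at 1595 and 386 against 122 and 219 CPM and missed the threshold (2.45, edgeR adjusted p = 0.013, with 1.72% called higher). In each of these clusters TO replicate 1 lay above TO replicate 2.

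Free RNA of these genes was also present in the TOs. Macrophage-like cells had 101.8 and 32.7 CPM of Acta2 in the TOs and 13.8 and 9.61 CPM in the testes (log2 fold change 2.68, SE 0.59, edgeR adjusted p = 0.0044, where 3.48% of genes were called higher). The stromal-like level was 10.3 and 8.27 times the macrophage-like level in the TOs and 2.88 and 8.13 times in the testes, so the lower TO value and the higher testis value were close. At 1500 UMIs, Acta2 was found in 45.8% and 18.1% of stromal-like TO cells against 12.3% and 5.35% of macrophage-like TO cells, with median depths of 3473 and 6737 UMIs for the first and 6327 and 5981 for the second. In the testes the shares were 4.13% and 2.26% of stromal-like cells and 1.29% and 1.35% of macrophage-like cells. Stromal-like TO cells carried 7.09 and 6.41 UMIs of Acta2 for each UMI of Myh11, close to the 7.26 and 6.0 of myoid-like TO cells, but 9.93 and 4.72 for each UMI of Lmod1 against 28.2 and 25.1. Other genes ran either way, with 92.2 and 147 against 32.3 and 37.9 for Cnn1, and 41.1 and 10.7 against 276 and 292 for Des. Stromal-like cells of the testes also carried Lmod1, at 45.0 and 70.8 CPM, and how much of the stromal-like Acta2 came from myoid-like cells was not tested. The Acta2 and Myh11 calls did not stand without testis replicate 1 (edgeR adjusted p = 0.054 and 0.058) or without testis replicate 2 (edgeR adjusted p = 0.038 and 0.067), with RLE factors or with thinned sums, and their direction was the same in all of these. When 1 library was left out, the log2 fold change ranged from 2.26 to 4.14 for Acta2, lowest without TO replicate 1, and from 2.46 to 4.19 for Myh11.

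Actg2 in stromal-like cells fell from 46.7 and 37.7 CPM in the testes to 3.48 and 0.191 CPM in the TOs (25 and 3 UMIs), with a log2 fold change of -4.76 (SE 0.92, edgeR adjusted p = 0.0067). The testis levels were 1.61 and 1.47 times those of macrophage-like cells, which is close to the level of free RNA in the same libraries. Actg2 was called lower in the other classes where it passed the filter, with log2 fold changes of -5.52 in macrophage-like, -4.91 in spermatogonia-like and -3.83 in Leydig-like cells, where 16.8%, 9.25% and 12.2% of genes were called lower. The Actg2 call in stromal-like cells did not stand without testis replicate 1 or testis replicate 2 (edgeR adjusted p = 0.050 and 0.038). Acta2 was higher in the spermatogonia-like cells of TOs (log2 fold change 3.54, edgeR adjusted p = 0.0052, where 0.511% of genes were called higher).

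**Figure D4:**
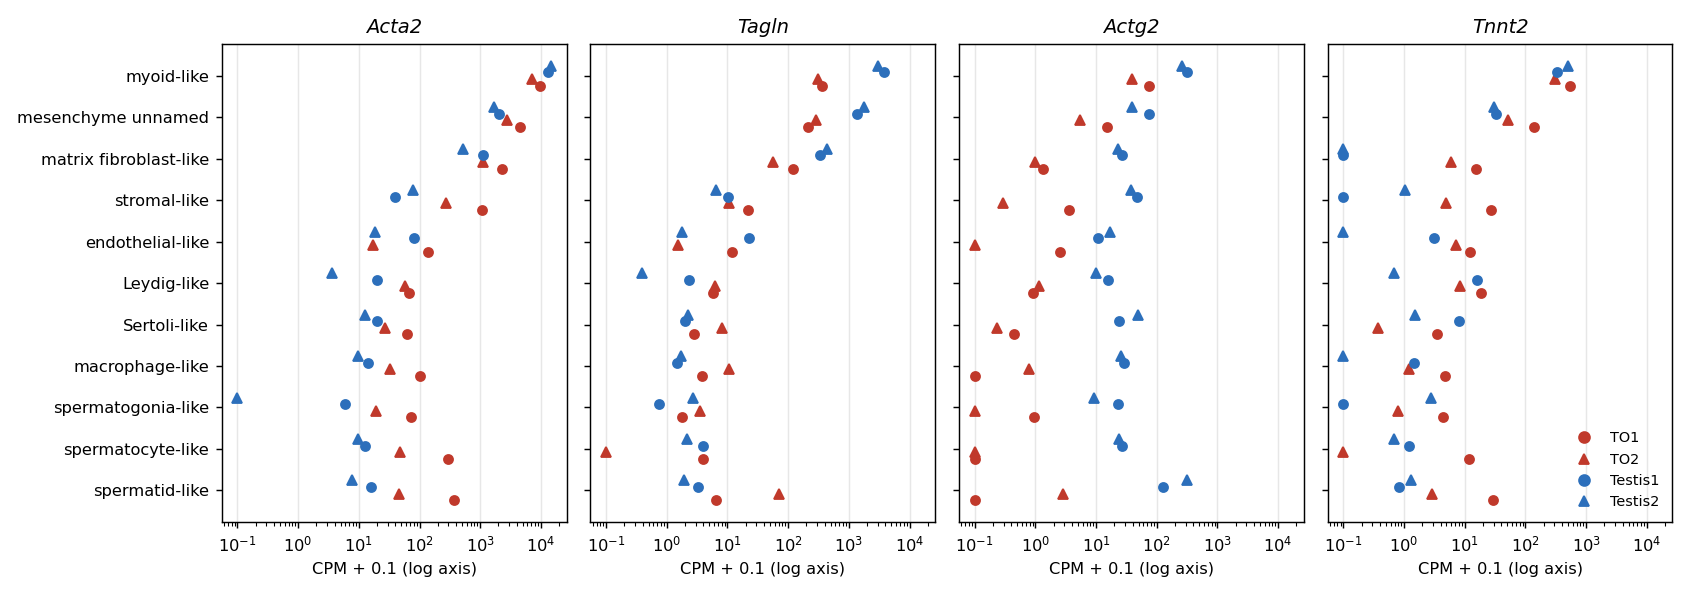
Level of Acta2, Tagln, Actg2 and Tnnt2 (CPM + 0.1, log axis) in each cell class of the 4 libraries, 1 point per library, with values of 0 drawn at 0.1. Acta2 and Tagln peak in myoid-like cells in both groups, and Actg2 of the testes is high in spermatid-like cells (125 and 312 CPM) as well as in myoid-like cells (318 and 258 CPM).

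The matrix fibroblast-like class was small in the testes, at 40 and 27 cells against 311 and 399 in the TOs, and 7 of the 10 genes passed the filter there. Its markers summed to 8419 and 11290 CPM in the TO cells and to 6762 and 5320 CPM in the testis cells. In stromal-like testis cells the same markers summed to 8116 and 5307 CPM, so this sum did not set the testis cells of the class apart. Tagln and Des were lower in TOs, with 9.42% of 9509 genes called lower. Tagln was at 120 and 57.1 CPM in the TOs and at 334 and 441 CPM in the testes (log2 fold change -1.98, SE 0.34, edgeR adjusted p = 3.4e-04). Des was at 14.8 and 7.98 CPM (24 and 27 UMIs) against 61.6 and 101.7 CPM (7 and 9 UMIs), with a log2 fold change of -2.71 (SE 0.58, edgeR adjusted p = 0.0023). Nearly all of the Tagln and Acta2 UMIs of the testis cells came from a cluster of 11 and 4 testis cells led by Mki67, Prc1 and other genes of cell division, which held 34 and 37 of the 38 and 39 Tagln UMIs and 124 and 46 of the 125 and 46 Acta2 UMIs. In the larger cluster of the class Tagln was at 125 and 47.1 CPM in the TOs and at 52.7 and 27.9 CPM in the testes (4 and 2 UMIs), so the direction for Tagln in this class rests on the Mki67-led cluster. Acta2 in that larger cluster was at 2206 and 1103 CPM in the TOs against 1 and 0 UMIs in the testes, and was called higher there (0.507% of genes). The Des call did not stand when any 1 of the 4 libraries was left out (edgeR adjusted p from 0.014 to 0.19). With no doublet removal the Tagln log2 fold change was 2.09 in place of -1.98.

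Sertoli-like cells line the inside of the tubule and are not contractile in the manner of muscle. They served as a comparison class, with 1555 and 735 TO cells and 474 and 257 testis cells, and 8 of the 10 genes passed the filter there. Myl9 and Actg2 were lower in TOs, where 21.5% of 14670 genes were. Myl9 was at 58.3 and 43.3 CPM in the TOs and at 122 and 138 CPM in the testes, with no overlap (log2 fold change -1.27, SE 0.18, edgeR adjusted p = 0.0013). Actg2 had 5 and 1 UMIs in the TOs and 63 and 68 in the testes (log2 fold change -6.87, SE 0.58), and its testis level was 0.830 and 1.88 times that of macrophage-like cells. Acta2 was at 61.3 and 27.0 CPM in the TOs, below the macrophage-like level of the same libraries, and at 19.5 and 12.7 CPM in the testes.

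All mesenchymal cells were also summed, so that the lines drawn between the classes could not set the result. Tagln was at 209 and 144 CPM in the TOs and at 2013 and 1571 CPM in the testes (log2 fold change -3.25, SE 0.34, edgeR adjusted p = 4.3e-04). Des was at 27.1 and 22.0 against 149 and 150 CPM (log2 fold change -2.51, SE 0.20, edgeR adjusted p = 1.6e-04), and Actg2 at 34.5 and 10.6 against 182 and 136 CPM (log2 fold change -2.76, SE 0.50, edgeR adjusted p = 0.0048). These 3 of the 10 genes were called lower, with 19.5% of 17249 genes called lower. Acta2 was at 5346 and 2511 CPM in the TOs and at 6677 and 6819 CPM in the testes (log2 fold change -0.69, SE 0.48, edgeR adjusted p = 0.28). Without TO replicate 1, 7 genes were called, Acta2 among them (log2 fold change -1.27), and Actg2 was not called without testis replicate 1 or testis replicate 2 (edgeR adjusted p = 0.043 and 0.019). The spread of Acta2 over cells also differed: myoid-like cells held 70.7% and 66.6% of all Acta2 UMIs of the TO libraries and 92.8% and 94.6% of those of the testis libraries, and mesenchymal cells outside the named classes held 18.1% and 22.4% against 3.39% and 2.95%. In such sums, fewer cells of a type and less RNA per cell cannot be told apart.

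Among the unnamed mesenchymal cells, most contractile RNA of the TOs lay in a cluster led by Pla1a and Rerg, with 365 and 350 TO cells but 11 and 5 testis cells. It held 19056 and 18150 UMIs of the 10 genes in the TOs and 469 and 191 in the testes. Acta2 was at 6024 and 4337 CPM in its TO cells and at 6755 and 5172 CPM in its few testis cells, with overlap, and Tagln was at 270.1 and 199.9 CPM against 2151 and 1044 CPM. A cluster led by Insl3 and Nr4a3 held 6606 and 3604 UMIs of the 10 genes in 168 and 114 TO cells, and had 3 and 1 testis cells. Neither cluster was tested, because a testis library held under 10 of its cells. An unnamed cluster led by Spon1 and Tspan8, with 364 and 379 TO cells and 49 and 34 testis cells, was tested. Acta2 (log2 fold change 7.08, edgeR adjusted p = 5.1e-04) and Myh11 (5.65, edgeR adjusted p = 0.0072) were called higher in TOs, where 45 of 9557 genes were. The 10 genes together had 6752 and 2866 UMIs in its TO cells and 32 and 33 in its testis cells.

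Another unnamed cluster was led by Rgs5, a gene of pericytes and vascular muscle, with 72 and 83 TO cells and 90 and 68 testis cells. Its vascular mural markers summed to 2473 and 3191 CPM in the testis cells but to 42.4 and 81.0 CPM in the TO cells, so here too the TO cells did not carry the genes that mark the cluster. Matrix fibroblast markers summed to 16870 and 19617 CPM in its TO cells and to 1061 and 864 CPM in its testis cells. The values of this cluster therefore set side by side cells that may not be of 1 type. Acta2 was at 2020 and 3476 CPM in its TO cells and at 2449 and 2214 CPM in its testis cells, with overlap. Des, at 17.3 and 26.6 against 231 and 358 CPM, and Myh11, at 200.3 and 160 against 629 and 658 CPM, were called lower in TOs (log2 fold changes -3.64 and -1.80, with 16.1% of 7435 genes called lower).

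An edgeR fit of both classes per library tested whether the TO against testis log2 fold change differed between myoid-like cells and another class. Against stromal-like cells, 8 of the 10 genes passed, where 4.30% of 16099 genes did. Tagln (-4.36), Myh11 (-4.27), Acta2 (-4.15), Cnn1 (-2.58), Des (-2.31), Myl9 (-2.22) and Tnnt2 (-4.95) were relatively lower in the myoid-like cells of TOs, and Actg2 (2.35) relatively higher, in log2 units. The Tnnt2 value rests on 0 and 1 UMIs in the stromal-like cells of the testes, and the Cnn1 call did not stand without TO replicate 1 (edgeR adjusted p = 0.16), testis replicate 1 (0.011) or testis replicate 2 (0.019). Lmod1 (-0.96) and Smtn (-0.55) were not called. Among the called genes, only Tagln (-3.33 against 0.92) and Des (-2.96 against -0.85) changed more in myoid-like than in stromal-like cells. Acta2 (-0.74 against 3.48) and Myh11 (-0.75 against 3.56) changed more in stromal-like cells. Against Sertoli-like cells, 4 passed, where 8.12% of 16765 genes did: Des (-6.23), Tagln (-4.76) and Acta2 (-2.21) were relatively lower, and Actg2 (4.47) relatively higher. Both comparisons use the same libraries and the same myoid-like sums. Sertoli-like levels were 0.60 to 1.41 times the macrophage-like level of the same library for Acta2 and 0.74 to 1.38 times for Tagln.

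Companion genes of the pathway were counted from a fixed list of 44, of which 42 passed the filter in myoid-like cells. There, 2 were called higher in TOs and 6 lower, shares below the 5.51% and 20.4% of all genes tested, so the counts do not set the companions apart. The total of 8 was 2 with thinned sums and 15 without Harmony. Of the 8 thin filament companions 1, Tpm2 (beta tropomyosin), was lower (log2 fold change -1.25). Of the 7 linkers of dense bodies and the cytoskeleton, Synm (synemin, a partner of desmin) was lower at 16.1 and 20.7 against 70.6 and 121 CPM (-2.38), as was Synpo2 (-1.66). Of the 10 regulators of contraction, Pln (phospholamban, a brake on the calcium pump) was lower at 5.09 and 3.27 against 61.8 and 61.8 CPM (-3.89), and so was Cacna1c, the L-type calcium channel, at 54.8 and 53.8 against 190 and 188 CPM (-1.81). Of the 7 receptors 5 passed the filter, and P2rx1, an ATP-gated channel, was lower (-5.37), whereas the endothelin receptor Ednra was at 364 and 330 against 214 and 221 CPM without passing (0.66, edgeR adjusted p = 0.044).

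The companions that rose were Myh9, a non-muscle myosin, at 292 and 351 against 127 and 124 CPM (log2 fold change 1.35), and Mrtfb, a coactivator of serum response factor, at 135 and 155 against 72.4 and 66.6 CPM (1.05). Myocd itself, which encodes myocardin, was at 111 and 172 CPM in the TOs and at 122 and 138 CPM in the testes, with overlapping libraries (0.12, edgeR adjusted p = 0.74). Srf likewise did not pass (0.44, edgeR adjusted p = 0.39). Without the Mustn1-led cluster, 1 of 41 companions was higher, Myh9, and 4 were lower, against 18.4% of all genes called lower: Synm (-2.26), Pln (-2.52), Cacna1c (-1.17) and Myh10 (-1.08), a second non-muscle myosin. Tpm2 (-0.94) and Synpo2 (0.44) were then not called, and P2rx1 fell below the filter. In the stromal-like cells 8 of 39 companions were higher in TOs, against 1.86% of all genes, among them Tpm2 (2.84), Actn1 (2.77, an actinin that bundles actin), Mylk (1.55, the myosin light chain kinase) and Myocd (2.33, at 21.2 and 18.5 against 5.09 and 2.76 CPM), and Pln alone was lower (-5.64).

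The genes outside these lists whose levels ran most like the 10 genes, by Pearson's r between log2 levels and the mean of the scaled levels of the 10, over 47 sums of a class in a library, were Carmn (r = 0.960), Fibin (0.932), Col4a4 (0.912), Tcf23 (0.899) and Col4a3 (0.899). The sums share libraries and classes, so r is a description only. Of the 10 genes Myh11 itself had r = 0.964 with that mean and Actg2 had 0.407, the lowest. In myoid-like cells Carmn, a long non-coding RNA of smooth muscle, was at 426 and 306 CPM in the TOs and at 214 and 348 CPM in the testes, with overlap, while Fibin was at 35.6 and 19.8 against 172 and 299.9 CPM.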

How the data were processed

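Per the labels, 3′ single-cell libraries were made with the 10x Chromium v3.1 kit from 2 TO and 2 testis samples, and the submitters' processing notes name Cell Ranger 7.1.0 and mm10. The deposited files are count matrices made by the authors, with the raw number of UMIs for a gene in a barcode and no normalization. The genes, companion lists and comparisons were chosen with earlier results of these data known.

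Barcodes were retained where they had between 1000 and 5000 detected genes, no more than 20000 UMIs and a mitochondrial share up to 10%, and 37893 of 51139 were left once doublets were gone. Doublets were scored with Scrublet (scanpy 1.11.5), and the top 0.8% per 1000 barcodes of a library were removed. Counts were scaled to 10000 per cell, and 2000 variable genes without the 10 genes and their companions gave 30 principal components, which were aligned across libraries by Harmony and clustered by Leiden (resolution 1), first over all cells and then over mesenchymal cells. Mesenchymal clusters were named by the mean of their marker levels in SDs over clusters, with at least 3 markers found in 10% of cells. A name also needed a positive score, and no other cell type with more markers among the 10 leading genes. This score was chosen after a first score left the Tnnt2-led cluster all but tied between stromal and myoid, and before any test between groups; 4 clusters stayed unnamed. Names are "-like" and may differ from the study's.

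UMIs were summed per library and class and tested with edgeR 4.0.16 (TMM, filterByExpr, quasi-likelihood, Benjamini-Hochberg over all genes) in place of the study's test across cells, since cells are not replicates. A gene was called at an adjusted p under 0.01 together with a change beyond 1 on the log2 scale. All 10 genes are named, companions are counted by group with the called ones of largest fold as examples, and the 5 genes nearest in pattern are given. DESeq2 1.42.0, RLE factors, filters, doublets, alignment, resolution, thinning, a replicate block and leaving out each library were alternatives. Leaving out the Mustn1-led cluster was added after seeing the data. On simulated counts with 200 genes changed 4-fold, edgeR recovered 63% in the myoid comparison, 54% in the stromal, 35.5% in the matrix fibroblast and 69.5% in the Sertoli comparison. Intervals and floors cover counting error only. Gene positions are from GENCODE (GRCm38).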

Additional observations from a re-analysis of the deposited data

Results flagged for a closer look

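These results stand apart because the difference between TO and testis was not the same in 2 cell classes, by the interaction test of edgeR with the library as a block. Values are the log2 fold change in myoid-like cells minus that in the other class. Against stromal-like cells they were -4.95 for Tnnt2, -4.36 for Tagln, -4.27 for Myh11, -4.15 for Acta2, -2.58 for Cnn1, -2.31 for Des, -2.22 for Myl9 and 2.35 for Actg2. The Tnnt2 value rests on 0 and 1 UMIs in the stromal-like cells of the testes. Against Sertoli-like cells they were -6.23 for Des, -4.76 for Tagln, -2.21 for Acta2 and 4.47 for Actg2, and Des had 1 and 0 UMIs in the Sertoli-like cells of the testes. Sertoli-like Acta2 was at 0.60 and 0.82 times the macrophage-like level in the TOs and 1.41 and 1.32 times in the testes. Sertoli-like Tagln was at 0.74 and 0.76 times and at 1.38 and 1.32 times, with 5 and 3 UMIs in the testes. Both Actg2 values set myoid-like cells against classes whose testis level of Actg2 was close to that of macrophage-like cells.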

How the results depend on the processing

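Tagln and Des in myoid-like cells were called lower in all 16 alternatives with a value, with log2 fold changes from -4.10 to -3.18 (adjusted p from 7.4e-39 to 0.0016) and from -4.09 to -2.52 (7.8e-25 to 0.0022). Actg2 kept its call in 15 (-2.86 to -1.96) and Cnn1 in 9 (-1.46 to 0.19). None of these 16 left out the Mustn1-led cluster. Without that cluster Tagln (-2.50) and Des (-2.13) were still called lower, but with smaller changes than in any of the 16. Thinned sums left 2 genes called in myoid-like cells, 0 in stromal-like, 0 in matrix fibroblast-like and 0 in Sertoli-like cells, and far fewer of all genes tested were called there (1000 against 3863 in myoid-like and 0 against 2735 in stromal-like cells, with 2824 at an unadjusted p under 0.05 in the latter). In stromal-like cells RLE factors gave 0 calls and the replicate block gave 5, where DESeq2 gave 3. Leaving out genes of other cells also gave 0, but that setting removed Acta2, Myh11 and Actg2 before testing. Those genes could not be called there. Of the companions in myoid-like cells, 8 were called, 2 with thinned sums and 15 without Harmony. In matrix fibroblast-like cells the block and resolution 2 gave 1 call each, and in Sertoli-like cells genes with any count gave 4 and no doublet removal gave 1. Leaving out 1 library gave 3 to 4 calls in myoid-like, 0 to 5 in stromal-like, 1 to 2 in matrix fibroblast-like, 2 to 3 in Sertoli-like cells and 2 to 7 in all mesenchymal cells. Without Harmony the difference in the myoid-like share of mesenchymal cells was 11.4 percentage points in place of -10.6, since the testis share was then 16.8% and 17.2%; stromal-like and matrix fibroblast-like cells were then too few to fit, as were matrix fibroblast-like cells at resolution 0.5. In myoid-like cells, where Tnnt2 had no call, its sign turned under 10 alternatives: -0.042 by DESeq2 and -0.042 by RLE factors, -0.0034 with the block, -0.018 without genes of other cells, -0.0019 with thinned sums, -0.16 with no upper limits, -0.22 at resolution 0.5, -0.063 with contractile genes kept, and -0.40 and -0.29 without TO replicate 1 and testis replicate 1 (range -0.40 to 0.36 over the libraries left out), whereas without Harmony it was 5.05. Without Harmony Cnn1 was 0.19 and Lmod1 0.24. Tagln in matrix fibroblast-like cells was 2.09 with no doublet removal and 1.17 with no upper limits, and in Sertoli-like cells -0.27 with no doublet removal. Other values near 0 turned too: Smtn in stromal-like cells (0.053, thinned), Myl9 (-1.25, thinned; -0.57 to 0.86 without a library), Myh11 (-0.37 to 0.85) and Smtn (0.035 with any count, 0.062 at resolution 2, -0.48 to 0.37 without a library) in matrix fibroblast-like cells, Tnnt2 in Sertoli-like cells (-4.01 to 0.55), and Lmod1 (-0.73 to 0.021) and Tnnt2 (0.018 with any count, -1.01 to 0.40 without a library) in mesenchymal cells. So did the differences between myoid-like and Sertoli-like effects for Smtn (-0.20 with any count, -0.74 to 0.53 without a library), Lmod1 (-1.75 to 0.53) and Tnnt2 (-0.93 to 3.94). The causes were not tested. The replicate numbers are shared by the groups, but deviations of same-numbered libraries correlated at 0.069 to 0.23 with only 2 pairs and no label ties them, so the block is given here only. It left 4 calls in myoid-like and gave 3 in Sertoli-like and 4 in mesenchymal cells.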
